A study of Mus musculus with 6 samples.

Results

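Cytochrome P450 enzymes (P450s) were followed in the epididymal white adipose tissue (eWAT) of mice that lack Mettl14 in adipocytes. The genes were chosen by name: every gene whose symbol is Cyp followed by a digit, leaving out Cyp51, which makes 102 of the 21361 named genes. This rule also takes in the transcribed pseudogenes Cyp2c53-ps, Cyp2d13, Cyp2d37-ps, Cyp4b1-ps2 and Cyp4f41-ps and the noncoding RNA Cyp4x1os. They are counted among the P450s here, and none of them reached a mean of 1 FPKM. Of these 102 genes, 25 reached 1 FPKM on average over all 6 libraries and were tested, and 77 did not. FPKM counts the fragments on each kilobase of a transcript, scaled to the size of the library, so it is a level per length and can be compared between genes. Of the 25 tested P450s, 12 were higher in Mettl14Δfat eWAT, 5 were lower and 8 missed the threshold. Among all 12955 genes tested, 24.8% were higher and 24.7% lower. Of the 25 P450s, 7 reached the mean of 1 FPKM only through Mettl14Δfat and 1 only through the controls.

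P450s are heme enzymes that insert 1 atom of oxygen into lipids, steroids, vitamins and foreign compounds. Most sit in the endoplasmic reticulum and take electrons from the reductase Por, often with help from cytochrome b5, and a smaller number sit in mitochondria and take them from ferredoxin. They are best known from the liver, where the families Cyp1 to Cyp3 clear drugs, and in other tissues they make and break down fatty acid mediators, steroid hormones, bile acids, vitamin D and retinoic acid.

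Male mice, 8 weeks old at the start, ate a high fat diet (HFD) and were fasted overnight before eWAT was taken. The diet lasted 16 weeks by the labels and 20 weeks by the design text. Both groups carry floxed alleles of Mettl14, which encodes a subunit of the m6A methyltransferase of RNA, and each library is taken as 1 mouse, since every title carries its own number. The 3 controls are called Mettl14f/f here, and their genotype label reads WT. The 3 Mettl14Δfat mice also carry Cre under the adiponectin promoter, which is active in adipocytes, while the libraries hold RNA of all cells of the tissue. Fewer cells of a type and less RNA per cell cannot be told apart in such libraries. In the study Mettl14Δfat mice gained less weight and fat on a HFD, and in these libraries the deletion and the lower adiposity cannot be told apart.

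Mettl14, the targeted gene, was at 5.35, 5.01 and 5.81 scaled FPKM in Mettl14f/f replicates 1 to 3 and at 4.21, 4.12 and 4.27 in Mettl14Δfat replicates 1 to 3. All 3 Mettl14Δfat libraries lay below the controls, with a log2 fold change of −0.30 (SE 0.0658, limma adjusted p = 0.0108, where SE is the standard error). Scaled FPKM here means the deposited FPKM divided by a factor for each library, 0.932 to 0.963 for the controls and 1.04 to 1.07 for Mettl14Δfat. The authors' mean counts correspond to a depth of about 22200000 fragments in the Mettl14f/f libraries and 19200000 in those of Mettl14Δfat, so 1 FPKM stands for about 44 and 38 fragments of a 2 kb transcript. Mettl14Δfat replicates 1 and 2 stood apart. They held 176 and 272 scaled FPKM of 8 male germ line markers in sum, against 0.367 in replicate 3 and 0.279 to 0.987 in Mettl14f/f, where Tnp1, Odf1 and Pgk2 were listed at 0 in all libraries, and 0 of the 8 passed the test. Of 5 Leydig cell markers, whose sum was 84.2, 130 and 17.5 scaled FPKM in the Mettl14Δfat libraries and 7.92 to 10.6 in Mettl14f/f, nearly all was Insl3 (80.6, 126 and 15.3 against 5.77 to 8.07), the 1 of 2 tested that was higher. Star went the other way, at 1.74, 1.98 and 2.05 against 2.07 to 2.84, without passing, and Lhcgr stayed at or below 0.177. Hsd3b6 and Hsd17b3 were listed at 0 in Mettl14f/f. In Mettl14Δfat replicates 1 to 3, Hsd3b6 was at 1.05, 1.11 and 0.0579 and Hsd17b3 at 0.714, 1.46 and 0. The list for epididymal epithelium summed to 36.9, 64.7 and 0.782 against 0.613 to 1.55, carried by the general epithelial and ciliated cell genes Krt8, Foxj1 and Epcam, of which none passed. Of its other members, Adam7 was at 1.17 and 1.82 in Mettl14Δfat replicates 1 and 2, while Crisp1 and Defb1 were listed at 0 there and Lcn8 and Ros1 did not exceed 0.0746. White adipocyte markers summed to 12761, 14335 and 9903 scaled FPKM in Mettl14Δfat and 7520 to 10285 in Mettl14f/f, so the labelled tissue was present in every library. Most of the sum was Fabp4, at 8415 to 12032 in Mettl14Δfat and 5761 to 7726 in Mettl14f/f. Of the 8 markers 2 were higher (Fabp4 and Pparg), 1 lower (Lep) and 5 not past the test. Among those 5, Adipoq, Cidec and Retn had lower means in Mettl14Δfat and Plin1 and Lipe higher ones. Macrophage markers summed to 2753, 2067 and 3909 scaled FPKM in Mettl14Δfat and 5915 to 6802 in Mettl14f/f, with 6 of 8 lower. Endothelial markers summed to 333 to 378 against 164 to 209, with 8 of 8 higher. Of 6 hepatocyte markers, with sums of 6.52 to 8.09 scaled FPKM against 1.72 to 2.84, Serpina1a alone made the difference (4.81, 6.02 and 6.08 against 0.816 to 1.34, the 1 of 2 tested that was higher), while Alb, Apoa1, Ttr and Fgb overlapped between the groups and Cps1 was at most 0.0311 in any library. The sums overlapped between the groups for markers of fibroblast progenitors (836 to 976 scaled FPKM in Mettl14f/f, 887 to 1059 in Mettl14Δfat), smooth muscle (77.7 to 101 and 78.1 to 89.4), mesothelium (32.8 to 38.5 and 20.0 to 54.2) and brown adipocytes (1.18 to 2.64 and 1.86 to 3.28), and those of Sertoli cells summed to 2.22 to 2.72 in the controls and 3.07 to 11.6 in Mettl14Δfat. The part of these cell types in the P450 results was not tested. Some P450s are given below for Mettl14Δfat replicate 3 alone, where the germ line and epididymal sums were at the control level. Its macrophage, endothelial, Leydig and hepatocyte sums were not, so that fit is no test of these cell types.

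By mean level, Cyp2e1, Cyp4b1, Cyp4v3, Cyp27a1 and Cyp1b1 were the 5 highest P450s, and Cyp21a1, the last inside the threshold, had a mean of 1.05 FPKM as deposited. Cyp2ab1, the first outside it, had 0.973. The family Cyp2 has 50 of the 102 genes and Cyp4 has 23, and 9 and 7 of them were tested. None of the 8 Cyp3 genes, the main drug oxidases of the liver, reached the threshold. In all, 16 P450s were at or above 1 FPKM in every library, and 19 were listed at 0 in all 6. By group, 19 reached a mean of 1 FPKM in Mettl14f/f, 27 in Mettl14Δfat and 17 in both.

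**Figure D1:**
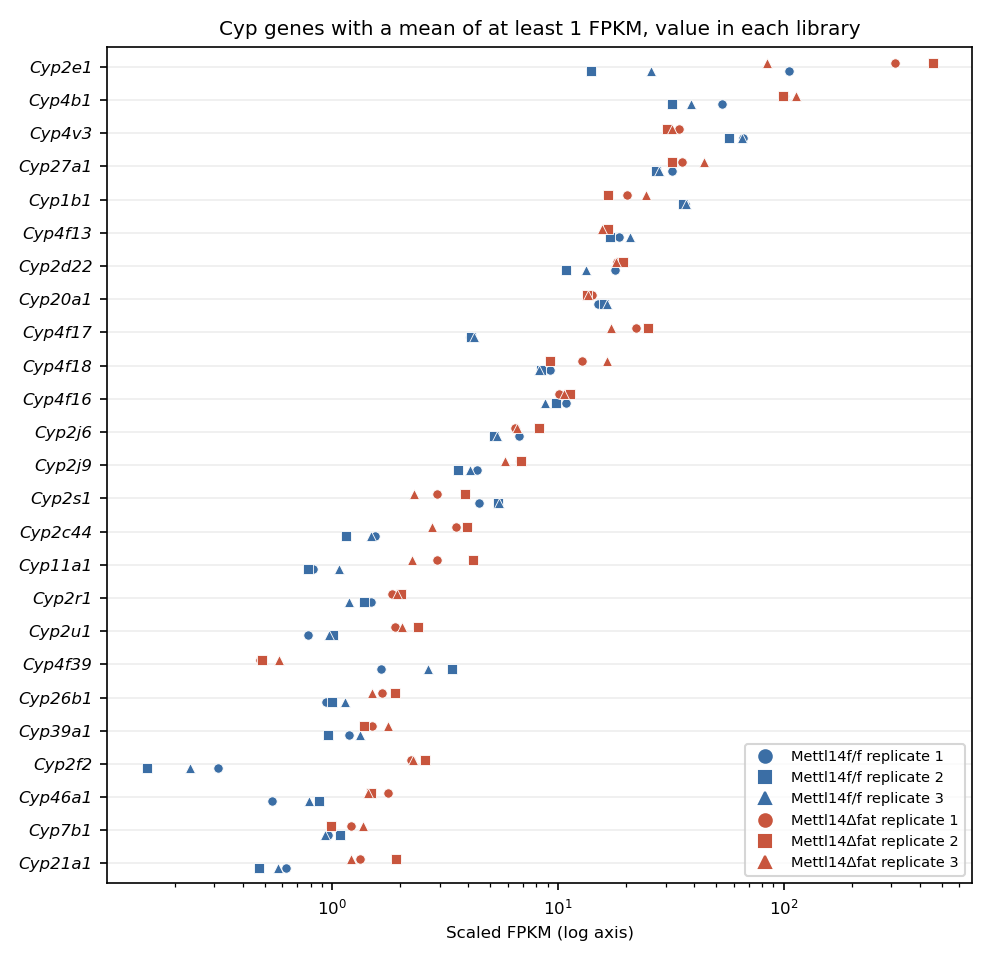
Scaled FPKM on a log axis for the 25 P450s with a mean of at least 1 FPKM, in order of that mean. Each symbol is 1 library, blue for Mettl14f/f and red for Mettl14Δfat, with a shape for each replicate number. The groups do not overlap for 19 of the 25 genes, 13 with Mettl14Δfat higher and 6 with it lower.

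Among all 12955 genes tested by limma on log2(FPKM + 1), 24.8% were higher in Mettl14Δfat and 24.7% lower at an adjusted p under 0.05. For the P450s these counts were 12 and 5 of 25. Their median log2 fold change was 0.40, and that of all genes tested was 0.01. The filter acts on the mean of both groups, and 7 of the 25 (Cyp11a1, Cyp2u1, Cyp26b1, Cyp2f2, Cyp46a1, Cyp7b1 and Cyp21a1) passed it only through the level in Mettl14Δfat, being under 1 FPKM as deposited in Mettl14f/f, while 1, Cyp4f39, passed it only through Mettl14f/f. Of the 16 P450s at or above 1 FPKM in every library, 6 rose, 4 fell and 6 did not pass. The groups did not overlap for 13 P450s with Mettl14Δfat higher and 6 with it lower, where the shares over all genes tested were 30.3% and 30.9%. Of the 17 P450s called, 9 passed in every alternative that gave a value, namely Cyp4b1, Cyp4v3, Cyp1b1, Cyp4f17, Cyp2c44, Cyp11a1, Cyp2u1, Cyp2f2 and Cyp21a1. How many of all genes called passed in every alternative was not counted. Among these alternatives was a fit with Mettl14Δfat replicate 3, where germ line markers were at the control level, as the only one of its group. That fit assumes that the lone library varies like the others. On values as deposited, without scaling between libraries, 17 P450s were higher and 4 lower, while 4672 and 1963 of all genes were and their median log2 fold change was 0.15.

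**Figure D2:**
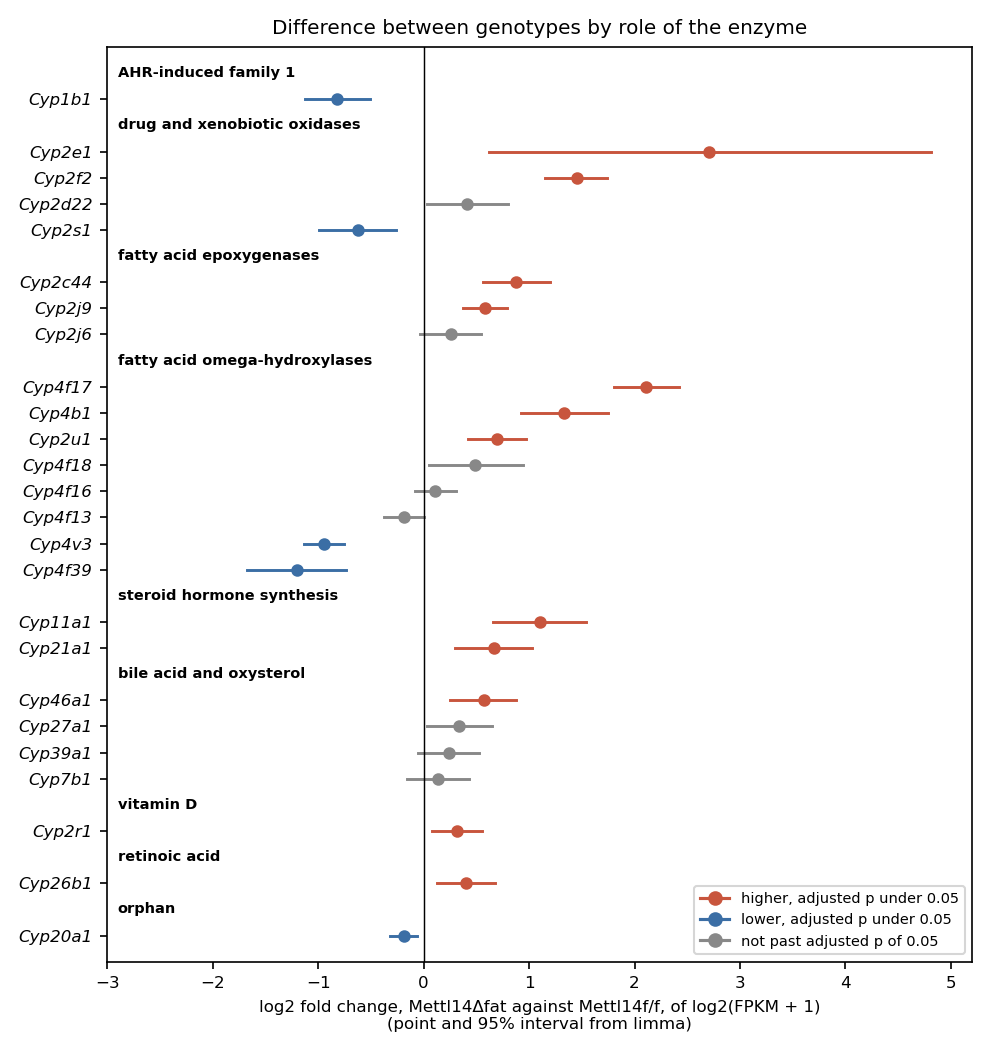
Log2 fold change of log2(FPKM + 1), Mettl14Δfat against Mettl14f/f, for the 25 tested P450s grouped by the role of the enzyme. Points are limma estimates with 95% intervals, red for the 12 higher, blue for the 5 lower and grey for the 8 that did not pass. Cyp2e1 has the widest interval, from 0.62 to 4.81.

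The sum of all 102 P450s was 400, 263 and 298 scaled FPKM in Mettl14f/f and 643, 786 and 431 in Mettl14Δfat. Cyp2e1 alone made up 26.5%, 5.31% and 8.63% of it in Mettl14f/f and 48.1%, 58.1% and 19.5% in Mettl14Δfat. Without Cyp2e1 the sums were 294, 249 and 272 against 334, 330 and 347 scaled FPKM. Most of the excess in Mettl14Δfat replicates 1 and 2 was therefore Cyp2e1. Cyp4v3 made up 16.5%, 21.7% and 21.8% of the total in Mettl14f/f and 5.32%, 3.86% and 7.44% in Mettl14Δfat.

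To show what lies at the start of the genes with the highest levels, the promoters of the highest 2 P450s that rose, Cyp2e1 and Cyp4b1, and the highest 2 that fell, Cyp4v3 and Cyp1b1, are printed here from RefSeq on GRCm38.p6. Each runs from 250 bases before the gene's start to 50 bases after it, 5′ to 3′ on the gene's strand, in lower case, with a match to TATAAA, the core promoter box, or GCGTG (core of the xenobiotic response element, XRE, of the aryl hydrocarbon receptor, read as CACGC on the other strand) in capitals. GTTAAT, a part of the HNF1 site, was also searched on both strands, and none of the 4 promoters holds it.
Cyp2e1, chr7:140763569-140763868, plus strand, TATAAA in capitals: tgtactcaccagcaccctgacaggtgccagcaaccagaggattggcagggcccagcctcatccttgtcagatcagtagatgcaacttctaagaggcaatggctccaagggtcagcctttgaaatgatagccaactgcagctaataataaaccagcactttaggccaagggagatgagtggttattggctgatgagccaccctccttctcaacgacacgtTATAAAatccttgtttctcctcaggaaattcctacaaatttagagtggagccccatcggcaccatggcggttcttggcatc
Cyp4b1, chr4:115647672-115647971, minus strand, no match: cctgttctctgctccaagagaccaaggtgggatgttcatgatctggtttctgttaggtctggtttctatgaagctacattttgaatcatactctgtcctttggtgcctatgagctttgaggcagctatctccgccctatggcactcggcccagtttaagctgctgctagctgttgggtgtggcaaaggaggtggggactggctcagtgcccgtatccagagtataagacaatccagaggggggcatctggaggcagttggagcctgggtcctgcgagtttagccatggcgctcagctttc
Cyp4v3, chr8:45333114-45333413, minus strand, GCGTG in capitals: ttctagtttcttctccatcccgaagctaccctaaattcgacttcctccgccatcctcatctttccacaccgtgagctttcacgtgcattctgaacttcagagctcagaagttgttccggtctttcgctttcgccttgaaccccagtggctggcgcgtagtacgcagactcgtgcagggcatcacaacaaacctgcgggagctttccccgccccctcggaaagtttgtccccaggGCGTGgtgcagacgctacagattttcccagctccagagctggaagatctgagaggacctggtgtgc
Cyp1b1, chr17:79715012-79715311, minus strand, CACGC in capitals: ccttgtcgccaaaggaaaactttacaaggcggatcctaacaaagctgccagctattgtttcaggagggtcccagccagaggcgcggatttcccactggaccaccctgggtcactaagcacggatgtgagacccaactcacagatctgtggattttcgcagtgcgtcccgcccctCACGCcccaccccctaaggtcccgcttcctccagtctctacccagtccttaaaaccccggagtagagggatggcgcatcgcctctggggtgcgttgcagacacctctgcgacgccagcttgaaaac

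The Cyp2e1 promoter holds a TATA box that begins at −31, counted from the gene's start, with 49.7% GC and 4 CpG. The Cyp4b1 promoter has 53.0% GC and 5 CpG. Those of the falling pair are richer in CpG, with 17 in Cyp4v3 (55.3% GC) and 16 in Cyp1b1 (58.3% GC), where the median of 32851 mouse promoters of this length is 7 CpG and 52.7% GC. The XRE core begins at −16 in Cyp4v3 and at −76 in Cyp1b1. Of the 102 P450s, 75 have a promoter in the table, 8 of them among the 12 that rose and all 5 of those that fell. GCGTG lies in 32.4% of all promoters, in 16 of the 75, in Cyp2j9, Cyp2r1 and Cyp46a1 among those that rose, and in Cyp1b1, Cyp20a1, Cyp4f39 and Cyp4v3 among those that fell. TATAAA lies in 13.6% of all promoters and in 31 of the 75, of which Cyp2e1 and Cyp26b1 rose and none fell. GTTAAT lies in 7.10% of all promoters and in 11 of the 75, and none of these 11 is among the 17 P450s called past the filter. These matches are descriptions of the letters, not sites shown to be bound.

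Of the 3 genes of the family Cyp1, which the aryl hydrocarbon receptor induces, Cyp1b1 alone was tested, and it fell. Cyp1b1 (Gene ID 13078, chr17:79706940-79715061 on GRCm38.p6, as are all positions here) oxidizes estradiol, polycyclic aromatic hydrocarbons and fatty acids outside the liver. It was at 36.5, 35.9 and 36.7 scaled FPKM in Mettl14f/f and at 20.2, 16.6 and 24.5 in Mettl14Δfat. The controls were nearly alike and all 3 Mettl14Δfat libraries lay well below them, replicate 3 least so. The fitted log2 change was −0.82 (SE 0.128, limma adjusted p = 0.00282), and the call held in all 13 alternatives. Macrophage markers, given above, were also lower in the Mettl14Δfat libraries, and least so in replicate 3. Within Mettl14f/f, where Cyp1b1 was nearly alike, they summed to 5915, 6802 and 6107 scaled FPKM in replicates 1 to 3. Their part in the Cyp1b1 result was not tested.

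Of 33 genes listed as drug and xenobiotic oxidases, the pseudogene Cyp2d37-ps among them, 4 were tested. Cyp2e1 and Cyp2f2 rose, Cyp2s1 fell and Cyp2d22 did not pass. Cyp2f2 passed the filter only through Mettl14Δfat. Cyp2e1 (Gene ID 13106, chr7:140763819-140774990) oxidizes ethanol, acetone and small solvents and is known to be induced by fasting and ketosis. It was at 106, 14.0 and 25.7 scaled FPKM in Mettl14f/f and at 310, 457 and 84.0 in Mettl14Δfat. The groups overlapped, since Mettl14Δfat replicate 3 lay below Mettl14f/f replicate 1, and the SD was about as large as the mean in the controls (48.6 ± 50.1 scaled FPKM, n = 3) and large in Mettl14Δfat (283 ± 188, n = 3). The log2 fold change was 2.71 (SE 0.874, limma adjusted p = 0.0398), and an exact permutation test gave p = 0.2, where 0.1 is the smallest that 3 libraries against 3 allow. The order of the libraries within each group was the same as for the summed white adipocyte markers, a sum that is mostly Fabp4. The 2 highest libraries were those with germ line transcripts. The part of either cell type in the Cyp2e1 result was not tested. With Mettl14Δfat replicate 3 alone the log2 fold change was 1.29 (limma adjusted p = 0.455).

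The call for Cyp2e1 was lost without Mettl14f/f replicate 2 (log2 fold change 2.10, limma adjusted p = 0.123), Mettl14f/f replicate 3 (2.52, adjusted p = 0.118), Mettl14Δfat replicate 1 (2.50, adjusted p = 0.114) or Mettl14Δfat replicate 2 (2.21, adjusted p = 0.0999), and with no filter (2.66, adjusted p = 0.0768). It passed in 7 of 13 alternatives, with adjusted p from 0.00902 to 0.455.

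Cyp2f2 (Gene ID 13107, chr7:27119955-27133660) is the enzyme of the mouse airway that activates naphthalene. It was at 0.311, 0.150 and 0.233 scaled FPKM in Mettl14f/f and at 2.24, 2.56 and 2.27 in Mettl14Δfat. It went from close to nothing to a low level that was nearly the same in all 3 Mettl14Δfat libraries, and the ratio of the means was 10.2. The part of other cell types in this rise was not tested. On the log2(FPKM + 1) scale, which understates the change of low genes, the log2 fold change was 1.45 (SE 0.122, limma adjusted p = 4.13e-04). Cyp2s1, a P450 of epithelia outside the liver, fell from 5.13 ± 0.577 to 3.02 ± 0.788 scaled FPKM (SD, n = 3), a log2 fold change of −0.62 (SE 0.152, limma adjusted p = 0.0151). Without Mettl14f/f replicate 2 or 3 its adjusted p from limma was 0.0563 or 0.0582. Cyp2d22, a mouse relative of human CYP2D6, was at 14.0 ± 3.56 and 18.6 ± 0.681 scaled FPKM (SD, n = 3) and did not pass, with a log2 fold change of 0.41 (95% interval 0.03 to 0.80, limma adjusted p = 0.0716). Without Mettl14f/f replicate 1, the highest control, it was 0.59 (limma adjusted p = 0.00748), and on values as deposited 0.56 (adjusted p = 0.0324).

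**Figure D3:**
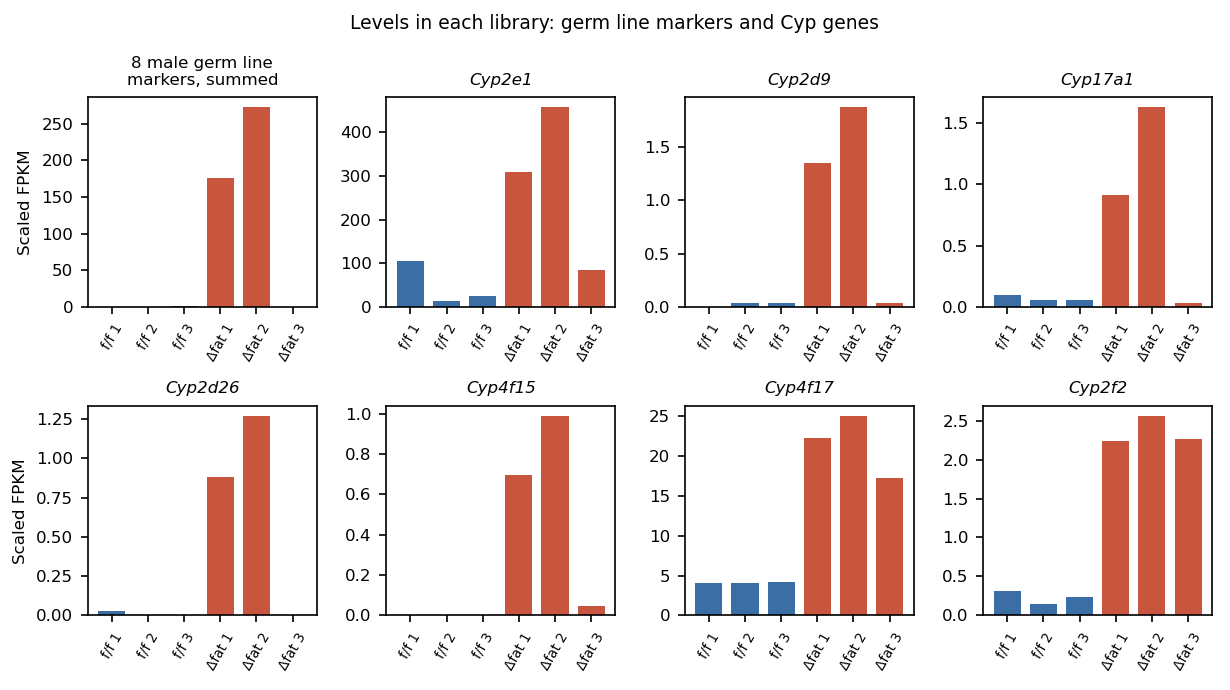
Scaled FPKM in each library, on linear axes from 0, of 8 male germ line markers in sum and of 7 P450s. Cyp2e1, Cyp2d9, Cyp17a1, Cyp2d26 and Cyp4f15 are highest in Mettl14Δfat replicates 1 and 2, where the germ line markers are at 176 and 272, while Cyp4f17 and Cyp2f2 are high in all 3 Mettl14Δfat libraries.

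Epoxygenases turn arachidonic acid into epoxyeicosatrienoic acids, lipid mediators that the soluble epoxide hydrolase Ephx2 then removes. Of 21 genes on this list, which also holds the bile acid hydroxylase Cyp2c70, 3 were tested, and Cyp2c44 and Cyp2j9 rose. Cyp2j9 (Gene ID 74519, chr4:96568424-96592523) was at 4.38, 3.61 and 4.05 scaled FPKM in Mettl14f/f and at 6.80, 6.87 and 5.82 in Mettl14Δfat. The groups did not overlap, and the log2 fold change was 0.58 (SE 0.0883, limma adjusted p = 0.00258), or 0.45 with replicate 3 alone (adjusted p = 0.0698). Its neighbour Cyp2j6, which ends 4118 bases before Cyp2j9 begins, was at 5.76 ± 0.854 and 7.06 ± 0.994 scaled FPKM (SD, n = 3) with overlapping groups. Cyp2j6 did not pass (log2 fold change 0.26, 95% interval −0.03 to 0.54, limma adjusted p = 0.121), though it did without Mettl14f/f replicate 1 (0.36, adjusted p = 0.0491) and as deposited (0.39, adjusted p = 0.0444). Cyp2c44, an arachidonic acid epoxygenase of the mouse kidney, rose from 1.39 ± 0.213 to 3.41 ± 0.610 scaled FPKM (SD, n = 3), a log2 fold change of 0.88 (SE 0.132, limma adjusted p = 0.00247).

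The omega-hydroxylases, which oxidize the far end of fatty acids and leukotrienes, were the group with the most tested genes, 8 of 20, and they moved both ways. Cyp4f17, Cyp4b1 and Cyp2u1 rose, Cyp4v3 and Cyp4f39 fell, and Cyp4f13, Cyp4f16 and Cyp4f18 did not pass. Cyp2u1 passed the filter only through Mettl14Δfat and Cyp4f39 only through Mettl14f/f. Cyp4b1 (Gene ID 13120, chr4:115624698-115647721), a fatty acid hydroxylase of lung that also activates plant furans, was at 53.0, 32.1 and 38.9 scaled FPKM in Mettl14f/f and at 99.8, 98.8 and 113 in Mettl14Δfat. The 3 Mettl14Δfat libraries were alike, replicate 3 being the highest, and all lay far above the controls. On the log2 scale Cyp4b1 rose by 1.33 (SE 0.173, limma adjusted p = 0.00153). In Mettl14Δfat replicate 3, Cyp4b1 was the highest P450, at 26.2% of the sum.

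Cyp4f17 (Gene ID 208285, chr17:32506192-32530158), a gene of the mouse Cyp4f cluster, was at 4.08, 4.12 and 4.23 scaled FPKM in Mettl14f/f and at 22.2, 25.0 and 17.2 in Mettl14Δfat. The controls were nearly alike, with an SD of 0.0798, and all 3 Mettl14Δfat libraries lay far above them, replicate 3 at 4.15 times the control mean. The ratio of means was 5.18 and the log2 fold change 2.11 (SE 0.127, limma adjusted p = 1.81e-04). Cyp4f39 (Gene ID 320997, chr17:32452697-32493320), the counterpart of a human enzyme that hydroxylates very long fatty acids for the skin barrier, lies 12871 bases before Cyp4f17 and went the other way. It was at 1.64, 3.37 and 2.65 scaled FPKM in Mettl14f/f and at 0.479, 0.485 and 0.579 in Mettl14Δfat. The controls varied, and all 3 Mettl14Δfat libraries were low and close together. The log2 fold change was −1.20 (SE 0.194, limma adjusted p = 0.00320), and −1.12 with replicate 3 alone (adjusted p = 0.0630). Cyp4f16, which begins 6386 bases after Cyp4f17 ends, was at 9.78 ± 0.990 and 10.6 ± 0.602 scaled FPKM (SD, n = 3) with overlapping groups (log2 fold change 0.11, 95% interval −0.08 to 0.31, limma adjusted p = 0.288). These 3 neighbours thus had 3 different outcomes. Of the 50-base stretches of Cyp4f16 transcripts, 17.4% (582) also occur in other genes, most often in Cyp4f37 and next in Cyp4f17. Of those of Cyp4f17, 2.99% (94) do, so a small part of the fragments may be shared between Cyp4f16 and Cyp4f17.

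Cyp4v3 (Gene ID 102294, chr8:45305801-45333163) is the mouse counterpart of human CYP4V2, a hydroxylase of fatty acids whose loss causes a retinal dystrophy. It was at 66.2, 57.0 and 65.1 scaled FPKM in Mettl14f/f, the highest P450 in controls 2 and 3, and at 34.2, 30.3 and 32.0 in Mettl14Δfat. The Mettl14Δfat libraries were alike and far below the controls, with a ratio of means of 0.513. Its log2 fold change was −0.94 (SE 0.0789, limma adjusted p = 4.12e-04). Cyp2u1, which hydroxylates arachidonic acid and other long fatty acids, rose from 0.918 ± 0.122 to 2.11 ± 0.253 scaled FPKM (SD, n = 3), a log2 fold change of 0.70 (SE 0.114, limma adjusted p = 0.00341). Cyp4f18, which breaks down leukotrienes in mouse myeloid cells, was at 8.60 ± 0.513 and 12.8 ± 3.66 scaled FPKM (SD, n = 3). It was 9.17 in Mettl14Δfat replicate 2, within the controls, and 12.8 and 16.5 in replicates 1 and 3. The log2 fold change was 0.49 (95% interval 0.05 to 0.94, limma adjusted p = 0.0655), and 0.69 without Mettl14Δfat replicate 2 (adjusted p = 0.00605), 0.64 as deposited (adjusted p = 0.0246). Cyp4f13 was at 18.8 ± 1.95 and 16.3 ± 0.487 scaled FPKM (SD, n = 3), with groups that did not overlap, and did not pass (log2 fold change −0.19, limma adjusted p = 0.0867, and −0.26 with 0.0382 without Mettl14f/f replicate 2).

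Of 6 steroid hormone genes 2 were tested, Cyp11a1 and Cyp21a1, and both rose. Both were under 1 FPKM in Mettl14f/f and passed the filter only through Mettl14Δfat, so this count is no sign of a direction of the group. Cyp11a1 (Gene ID 13070, chr9:57998024-58027031), the mitochondrial enzyme that cuts the side chain of cholesterol in the first step of steroid synthesis, was at 0.820, 0.783 and 1.07 scaled FPKM in Mettl14f/f and at 2.91, 4.21 and 2.26 in Mettl14Δfat. All 3 Mettl14Δfat libraries were above the controls, replicate 2 the highest. Its log2 fold change was 1.10 (SE 0.182, limma adjusted p = 0.00349), and 0.78 with replicate 3 alone (adjusted p = 0.0237). Cyp21a1, the steroid hydroxylase of the adrenal cortex, rose from 0.556 ± 0.0768 to 1.49 ± 0.381 scaled FPKM (SD, n = 3), a log2 fold change of 0.67 (SE 0.152, limma adjusted p = 0.0116). Of its 50-base stretches, 21.3% also occur in the pseudogene Cyp21a2-ps, so its level is uncertain. Of the Leydig cell markers, Insl3, Hsd3b6 and Hsd17b3 were highest in the same Mettl14Δfat libraries as Cyp11a1. Star, which brings cholesterol to that enzyme, was at 1.74 to 2.05 scaled FPKM in Mettl14Δfat and 2.07 to 2.84 in Mettl14f/f and did not pass. Their part in the Cyp11a1 result was not tested.

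Of 6 P450s of bile acid and oxysterol synthesis 4 were tested, Cyp46a1 and Cyp7b1 only through their level in Mettl14Δfat, and 1 rose. This was Cyp46a1, the cholesterol hydroxylase of neurons, which went from 0.732 ± 0.171 to 1.56 ± 0.178 scaled FPKM (SD, n = 3), a log2 fold change of 0.57 (SE 0.132, limma adjusted p = 0.0126). It did not pass without Mettl14Δfat replicate 1 (0.51, limma adjusted p = 0.0682) or with replicate 3 alone (0.49, adjusted p = 0.0679). Cyp27a1, the mitochondrial sterol hydroxylase, had the highest level of this group, 29.0 ± 2.55 and 37.3 ± 6.45 scaled FPKM (SD, n = 3). It did not pass (log2 fold change 0.34, 95% interval 0.03 to 0.65, limma adjusted p = 0.0652), but did without Mettl14Δfat replicate 2 (0.44, adjusted p = 0.0321), with replicate 3 alone (0.61, adjusted p = 0.0347) and on values as deposited (0.50, adjusted p = 0.0159). Cyp39a1 and Cyp7b1, both oxysterol hydroxylases, had log2 fold changes of 0.24 (95% interval −0.05 to 0.53) and 0.14 (−0.16 to 0.43), with adjusted p of 0.141 and 0.387 from limma.

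The vitamin D and retinoic acid groups had 1 tested gene each, and both rose. Cyp26b1, that of the retinoic acid group, passed the filter only through Mettl14Δfat, so its rise is no sign of a direction of that group. Cyp2r1, which makes the circulating hydroxylated form of vitamin D, went from 1.35 ± 0.151 to 1.93 ± 0.0916 scaled FPKM (SD, n = 3), a log2 fold change of 0.32 (SE 0.0987, limma adjusted p = 0.0360). Leaving out Mettl14f/f replicate 2 or 3 or Mettl14Δfat replicate 1 or 2 gave adjusted p of 0.0802, 0.102, 0.0966 and 0.107 from limma. Cyp26b1, which breaks down retinoic acid, went from 1.02 ± 0.103 to 1.68 ± 0.209 scaled FPKM (SD, n = 3), a log2 fold change of 0.40 (SE 0.114, limma adjusted p = 0.0249). Leaving out Mettl14f/f replicate 1 or 2 or Mettl14Δfat replicate 1 or 2 gave adjusted p of 0.0598, 0.0695, 0.0877 and 0.0873 from limma. Both calls thus rested on having all of these libraries.

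Cyp20a1 (Gene ID 77951, chr1:60343300-60388060), a P450 with no settled substrate, was at 15.0, 16.0 and 16.4 scaled FPKM in Mettl14f/f and at 14.1, 13.4 and 13.5 in Mettl14Δfat. The difference was small, and the groups did not overlap. This is a log2 change of −0.19 (SE 0.0541, limma adjusted p = 0.0241). It was −0.04 on values as deposited (adjusted p = 0.507), and adjusted p was 0.0742, 0.0898, 0.0554 and 0.0646 from limma when Mettl14f/f replicate 2 or 3 or Mettl14Δfat replicate 1 or 2 was left out.

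Of the 77 P450s under a mean of 1 FPKM, 19 were listed at 0 throughout, 51 never exceeded 0.850 FPKM as deposited, and 7 reached 1 FPKM in at least 1 library. In a fit with no filter, which covers 20553 genes and calls 14.8% higher and 16.9% lower, 83 P450s had a value, of which 18 were higher, 5 lower and 60 not past the test. Among the 7, Cyp2c70, a bile acid hydroxylase of mouse liver, was at 0.239, 0.408 and 0.647 scaled FPKM in Mettl14f/f and at 1.41, 1.52 and 1.24 in Mettl14Δfat (log2 fold change 0.72, limma with no filter, adjusted p = 0.00755). Cyp2b10, the classic target of the receptor CAR in mouse liver, was at 0.415, 0.0537 and 0.180 against 1.48, 1.73 and 0.869 (log2 fold change 0.93, adjusted p = 0.0112). Both were higher in all 3 Mettl14Δfat libraries, at low levels. Of the hepatocyte markers, Serpina1a was also higher in all 3 and Alb was not, and their part was not tested. Cyp2ab1 was at 1.03, 1.05 and 1.53 scaled FPKM against 0.808, 0.681 and 0.811 and did not pass (log2 fold change −0.34, adjusted p = 0.0613).

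The other 4 of the 7 were high in the 2 libraries with germ line transcripts and near 0 elsewhere. Cyp2d9, a steroid hydroxylase of male mouse liver, was at 1.35 and 1.87 scaled FPKM in Mettl14Δfat replicates 1 and 2, 0.0386 in replicate 3, and 0, 0.0322 and 0.0318 in Mettl14f/f. Cyp17a1, which makes androgens in Leydig cells, was at 0.911, 1.63 and 0.0290 against 0.0934, 0.0537 and 0.0531. Cyp2d26 was at 0.883, 1.27 and 0 against 0.0311, 0 and 0. These 3 genes in Mettl14Δfat replicate 3 were no higher than 0.0386. Cyp4f15 was at 0.695, 0.989 and 0.0483 scaled FPKM and was listed at 0 in the 3 Mettl14f/f libraries. None of the 4 passed (adjusted p = 0.120, 0.159, 0.134 and 0.0995 from limma with no filter), and their levels moved with the germ line markers and Insl3, whose part was not tested. Of the 50-base stretches of Cyp2d9, 21.8% occur in other genes such as Cyp2d10. The other 5 P450s higher in the fit with no filter, named after their values were seen, were Cyp4a10, Cyp4a31, Cyp4f14, Cyp2c65 and Cyp3a57, with log2 fold changes of 0.15 to 0.38. Their means in Mettl14Δfat were only 0.123 to 0.353 scaled FPKM. Of the 50-base stretches of Cyp4a10 and Cyp4a31, 29.8% and 20.6% occur in other genes, among them each other, and of those of Cyp2c65 20.6% do.

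Of 10 redox partner genes, all tested, 7 were higher, 1 lower and 2 not past the test, with a median log2 fold change of 0.68. Over all genes tested 24.8% were higher and 24.7% lower, the shares to set beside this list and those below. Not all 10 are electron donors, since Pgrmc1 and Pgrmc2, both higher, are on the list. Cyb5r1 and Cyb5r3 were the 2 that did not pass. Cyb5a, the cytochrome b5 of the endoplasmic reticulum, was at 260, 231 and 241 scaled FPKM in Mettl14f/f and at 482, 504 and 441 in Mettl14Δfat (log2 fold change 0.96, limma adjusted p = 4.14e-04). Pgrmc2, a heme-binding partner, rose by a log2 fold change of 1.05 (adjusted p = 3.96e-04), and Fdx1 and Fdxr, the mitochondrial ferredoxin and its reductase that serve Cyp11a1 and Cyp27a1, by 0.86 and 0.85 (adjusted p = 0.00833 and 4.88e-04), where Fdx1 had 0.69 with replicate 3 alone (adjusted p = 0.150). Por, the reductase of the microsomal P450s, was named after its value was seen, as the 1 member that was lower. It was at 119, 120 and 130 scaled FPKM against 101, 107 and 98.2 (log2 fold change −0.27, adjusted p = 0.0152), which passed in 8 of 13 alternatives with adjusted p from 0.00786 to 0.223. Without Mettl14f/f replicate 3 or Mettl14Δfat replicate 1 it was 0.0595 or 0.0672.

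Of 13 genes of heme synthesis and breakdown 3 were higher, 3 lower and 7 not past the test, shares near the 24.8% and 24.7% of all genes tested, with a median log2 fold change of −0.07. Alas1, the first and rate-limiting enzyme of heme synthesis outside red cells, was at 111, 128 and 126 scaled FPKM in Mettl14f/f and at 65.4, 69.6 and 62.7 in Mettl14Δfat, a log2 fold change of −0.87 (limma adjusted p = 4.57e-04). All 3 Mettl14Δfat libraries were thus far below the controls. Alas2, the form of red cell precursors, rose by 0.98 (adjusted p = 0.0367) and Alad, the next step, by 0.61 (adjusted p = 0.0256), each in 6 of 13 alternatives. The adjusted p of Alas2 was 0.116, 0.0871, 0.104 and 0.0826 when Mettl14f/f replicate 2 or 3 or Mettl14Δfat replicate 1 or 2 was left out, and that of Alad was 0.0708, 0.0845, 0.0574 and 0.0777 without Mettl14f/f replicate 1, 2 or 3 or Mettl14Δfat replicate 1. With replicate 3 alone their log2 fold changes were 0.37 and 0.23 and did not pass. Blvra, a biliverdin reductase, fell by 0.57 on the log2 scale (adjusted p = 0.00726).

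Of 18 genes of the nuclear receptors and the aryl hydrocarbon receptor system that regulate P450s, 9 were tested, with 2 higher, 2 lower, 5 not past the test and a median log2 fold change of 0.11. Ahr, the receptor that induces the family Cyp1, rose by a log2 fold change of 0.42 (limma adjusted p = 0.00948), as did Rxra, the shared partner of many nuclear receptors, by 0.43 (adjusted p = 0.00223). Nqo1, a target of the aryl hydrocarbon receptor and of NRF2, and the oxysterol receptor Nr1h2 were lower, with log2 fold changes of −0.37 and −0.30 (adjusted p = 0.0195 and 0.0202), each in 8 of 13 alternatives. Without Mettl14f/f replicate 2, Mettl14f/f replicate 3 or Mettl14Δfat replicate 1 the adjusted p was 0.0692, 0.0675 and 0.0645 for Nqo1 and 0.0706, 0.0705 and 0.0790 for Nr1h2. Ahr and Cyp1b1 thus went in opposite directions in the same libraries.

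Among 11 genes of eicosanoid synthesis and epoxide hydrolysis 7 were tested, of which 5 were higher, 1 lower and 1 not past the test, with a median log2 fold change of 0.46. Ephx2, which hydrolyses the products of the epoxygenases, was at 81.3, 60.8 and 72.7 scaled FPKM in Mettl14f/f and at 222, 242 and 185 in Mettl14Δfat, a log2 fold change of 1.58 (limma adjusted p = 4.46e-04). All 3 Mettl14Δfat libraries lay far above the controls. Tbxas1, the thromboxane synthase, a P450 whose symbol is not Cyp, was at 74.7, 87.2 and 78.8 against 27.1, 20.3 and 43.9, a log2 fold change of −1.44 (adjusted p = 0.00457). Its 3 Mettl14Δfat libraries ranked as the macrophage markers did, whose part was not tested. Alox12 and Alox5, lipoxygenases of arachidonic acid, rose by 1.44 and 0.77 (adjusted p = 0.0100 and 4.46e-04). Alox12 was at 3.06, 4.55 and 1.26 scaled FPKM in Mettl14Δfat, highest in the libraries with germ line transcripts, and passed the filter only through that group (0.371 ± 0.0731 in Mettl14f/f, SD, n = 3). Its log2 fold change was 0.72 with replicate 3 alone (limma adjusted p = 0.0192).

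Genes of retinoid supply and response were higher in 6 of 10 tested, lower in 1 and not past the test in 3, with a median log2 fold change of 0.38. Over all genes tested the shares were 24.8% higher and 24.7% lower. The 6 include Rara and Rarg, which are receptors of retinoic acid and not supply genes. Aldh1a1, which makes retinoic acid, was at 57.4, 31.9 and 36.8 scaled FPKM in Mettl14f/f and at 181, 193 and 163 in Mettl14Δfat, a log2 fold change of 2.11 (limma adjusted p = 6.43e-04). Rbp4, the carrier of retinol, rose by 1.47 (adjusted p = 0.0153, and 0.0542 without Mettl14Δfat replicate 1). With replicate 3 alone, which had 112 scaled FPKM where replicates 1 and 2 had 199 and 233, it was 0.85 (limma adjusted p = 0.235). Aldh1a3 rose by 0.65 (adjusted p = 0.00201, and 0.0638 with replicate 3 alone), while Dhrs3, which turns retinal back to retinol, had −0.63 (adjusted p = 0.00577). Genes of steroid synthesis and inactivation were higher in 7 of 15 tested, lower in 4 and not past the test in 4, with a median of 0.36. The 7 include Hsd17b4, Hsd17b10 and Hsd17b12, and the shares over all genes tested were 24.8% higher and 24.7% lower. Hsd11b1, which regenerates active glucocorticoid, was at 24.3, 11.2 and 18.7 scaled FPKM against 70.5, 85.6 and 47.4, a log2 fold change of 1.88 (limma adjusted p = 0.00354), and 1.41 with replicate 3 alone (adjusted p = 0.0833). Sult1e1, the estrogen sulfotransferase, and Hsd17b12 rose by 1.81 and 0.80 (adjusted p = 0.00146 and 2.81e-04), while Sts, the steroid sulfatase that reverses the sulfation, had −0.74 (adjusted p = 0.00180). Of 13 tested genes of phase 2 conjugation, which couple P450 products to glutathione, sulfate or glucuronic acid, 6 were higher, 1 lower and 6 not past the test, with a median of 0.65.

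**Figure D4:**
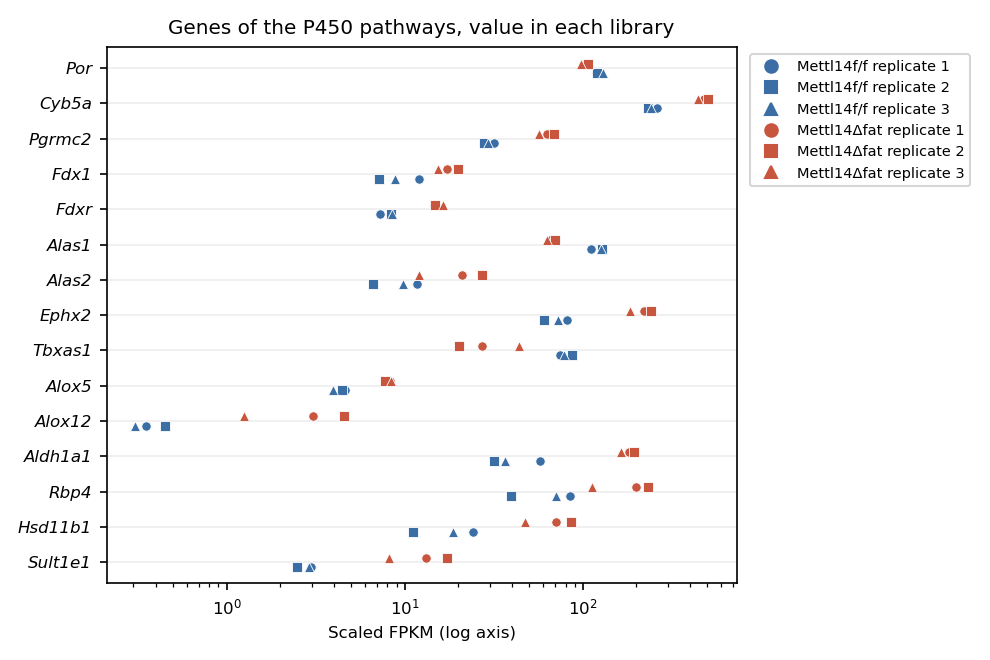
Scaled FPKM on a log axis for 15 genes that work with the P450s: redox partners, heme synthesis, eicosanoid, retinoid and steroid genes. Each symbol is 1 library, blue for Mettl14f/f and red for Mettl14Δfat. Por, Alas1 and Tbxas1 are lower in all 3 Mettl14Δfat libraries, and the other genes are higher.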

How the data were processed

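Values were FPKM for 6 libraries, 3 Mettl14f/f and 3 Mettl14Δfat, deposited by the authors with 2 decimals. As tools, the study's methods give STAR, HTSeq and DESeq2, and the processing notes of the submitters list HISAT2, Bowtie2, RSEM and DESeq2, with mm10 as the build. For versions and the handling of strand, nothing is given in the sources used here. The authors also deposited a table of their changed genes with a mean signal per group (scaled counts), used only for depth, and their fold changes and p values, which were not used. A single library's depth is not given, so precision rests on the spread between libraries.

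The table has 21362 rows, of which 1 has no name and was dropped, and 27 symbols stored as dates were restored. Identifiers of 21300 genes matched RefSeq on GRCm38.p6. Genes that reached a mean of 1 FPKM were scaled by an unweighted trimmed mean of M values (30% of ratios, 5% of levels) and fitted with limma 3.58.1 in R 4.3.3 on log2(FPKM + 1), with a mean-variance trend, two-sided, and Benjamini-Hochberg adjustment over all genes tested. Since FPKM are no counts, count models were not fitted. Fold changes are on that log2 scale. The planned permutation test of group sums was not run, because the genes were chosen with results known. The procedure was checked on simulated data. Shared stretches of 50 bases were found in GENCODE vM21 transcripts.

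The P450 genes, role lists and other lists were chosen with earlier results of these data known. Every P450 past the filter is named, with values per library for those called with a mean of at least 5 FPKM or an absolute log2 fold change of at least 1. Of each other list at most 4 genes, the largest changes called, are named, and Por besides. P450s under the filter are named where a library reaches 1 FPKM. Alternatives were median-of-ratios scaling, no scaling, no filter, a minimum of 1 FPKM in each library, a pseudocount of 0.1, replicate number as a block, each library left out, Mettl14Δfat replicate 3 alone, and the study's own thresholds (fold above 1.2, unadjusted p below 0.08).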

Additional observations from a re-analysis of the deposited data

How the results depend on the processing

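No tested P450 changed direction in any alternative. The count of P450s higher in Mettl14Δfat was 12, and 8 to 18 in the alternatives (17 as deposited, 18 with no filter, where 83 P450s were tested, and 8 with at least 1 FPKM in every library, where 16 were). With each library left out in turn it was 8 to 13. The count lower was 5. With each library left out it was 3 to 5, the 3 being without Mettl14f/f replicate 3, and it was 3 with Mettl14Δfat replicate 3 alone, where 2 P450s passed that had not and 7 no longer did. With median-of-ratios scaling and with a pseudocount of 0.1 all 25 kept their call. Over all genes, 3214 were higher and 3202 lower, against 4672 and 1963 as deposited and 1406 and 1313 with Mettl14Δfat replicate 3 alone. Counting error cannot be given for FPKM, and levels under 1 FPKM rest on few fragments.

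Replicate numbers are shared between the groups. Deviations of same-numbered libraries had correlations of 0.0393, −0.0931 and −0.129, which show no shared deviation. With 3 libraries in each group this cannot settle whether the mice were paired, so the fit with pairs is given too. With a replicate block, 9 P450s were higher and 4 lower, and 21 of 25 kept their call. The others were Cyp20a1, Cyp2r1, Cyp26b1 and Cyp46a1, with adjusted p of 0.0786, 0.0976, 0.0771 and 0.0506 from limma.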
